A study of Mus musculus with 26 samples.

Results

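Potassium channel and TRP channel genes were followed in mouse aortic endothelium during repair of a wound. They were taken as every row of the deposited count matrix whose symbol begins with Kcn or with Trpa, Trpc, Trpm or Trpv followed by a number, which gave 114 of 21119 genes. The set held 40 voltage-gated alpha subunits, 11 of their accessory subunits, 15 inward rectifiers, 14 two-pore-domain channels, 12 calcium- or sodium-activated channels and subunits, 21 TRP channels, and Trpc4ap, which is named after a TRP channel but is not one. A filter on low counts left 50 of the 114 for testing.

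RNA was sequenced from the aortae of C57BL6/J mice that had been wounded by mechanical pressure. The endothelial fraction was obtained by flushing lysis buffer through the lumen, and the tissue fraction was the homogenized vessel that remained. The injured 48 h group was the abdominal flush of 9 mice at 48 h, and the injured 3 h group was the abdominal flush of 5 other mice at 3 h. The tissue 48 h group came from 3 of the 48 h mice, as the abdominal vessel left after the flush. The uninjured 48 h group was the flush of the unwounded thoracic aorta of the same 9 mice, so every mouse of the study had been operated on, and the wound and the aortic segment cannot be told apart. The same holds between the injured 3 h and the uninjured 48 h flush, which also came from different mice. Each library was 1 mouse, in 3 experimental batches. Age and sex were not given in the sources used here. The matrix headers call the 3 h libraries 0 h; the time in the sample labels was used.

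Potassium channels let potassium leave the cell and hold its membrane at a negative voltage. In arteries the endothelium uses the small- and intermediate-conductance calcium-activated channels (Kcnn3 and Kcnn4) and the inward rectifier Kcnj2 for this, and calcium that enters through TRP channels such as Trpv4 opens the calcium-activated ones. The hyperpolarization passes to the smooth muscle of the wall, which carries its own set: the large-conductance channel BK (pore Kcnma1, beta subunit Kcnmb1), the ATP-sensitive channel (pore Kcnj8), and voltage-gated channels of the Kcnq and other families. Most other members are best known from neurons, heart, kidney or sensory cells.

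The 250 bases upstream of the annotated start are shown for 4 members that carry the main results. Trpv4 (chr5:114658422-114658671, minus strand) and Kcnj2 (chr11:111065914-111066163, plus strand) were higher in the flush than in the tissue and lower at 48 h than at 3 h. Kcnmb1 (chr11:33962763-33963012, plus strand) and Kcnj8 (chr6:142571615-142571864, minus strand) were lower in the flush than in the tissue. The sequences are RefSeq's, build GRCm38.p6, written 5′ to 3′ on the gene's strand. Capitals mark AGGAAG, the core of many sites for ETS factors, and CACCC, the core of many sites for Krüppel-like factors, on either strand, so that CTTCCT and GGGTG are marked too.
Trpv4: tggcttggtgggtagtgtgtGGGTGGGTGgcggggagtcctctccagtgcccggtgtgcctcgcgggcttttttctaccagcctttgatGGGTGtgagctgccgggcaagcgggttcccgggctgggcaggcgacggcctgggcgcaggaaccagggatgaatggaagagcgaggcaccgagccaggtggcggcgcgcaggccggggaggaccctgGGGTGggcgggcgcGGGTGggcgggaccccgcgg
Kcnj2: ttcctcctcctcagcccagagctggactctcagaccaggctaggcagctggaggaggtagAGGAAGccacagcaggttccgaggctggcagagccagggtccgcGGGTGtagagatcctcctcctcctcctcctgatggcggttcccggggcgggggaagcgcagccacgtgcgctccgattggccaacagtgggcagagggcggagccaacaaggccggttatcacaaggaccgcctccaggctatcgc
Kcnmb1: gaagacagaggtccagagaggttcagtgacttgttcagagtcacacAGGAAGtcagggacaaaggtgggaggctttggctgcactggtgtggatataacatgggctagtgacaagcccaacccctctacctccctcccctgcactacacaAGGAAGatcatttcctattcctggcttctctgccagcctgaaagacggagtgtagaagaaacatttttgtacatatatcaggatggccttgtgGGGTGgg
Kcnj8: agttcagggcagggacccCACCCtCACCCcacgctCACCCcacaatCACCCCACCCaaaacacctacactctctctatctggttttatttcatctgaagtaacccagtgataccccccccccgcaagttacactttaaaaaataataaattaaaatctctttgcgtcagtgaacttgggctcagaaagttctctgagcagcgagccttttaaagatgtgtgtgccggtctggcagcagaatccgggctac
A CArG box, the site of serum response factor in many smooth muscle genes, was searched for by its name on both strands and was in none of the 4. CACCC occurred 5 times upstream of Trpv4, 1 time upstream of Kcnj2, 1 time upstream of Kcnmb1 and 5 times upstream of Kcnj8. AGGAAG occurred 1 time upstream of Kcnj2 and 2 times upstream of Kcnmb1. Of all 32851 RefSeq windows of this length, 52% held CACCC, 29.5% held AGGAAG and 1.47% held a CArG box. Windows matched 86 of the 114 members, of which 67 held CACCC, 34 held AGGAAG and 2 held a CArG box (Trpc6 and Trpv1). A member counted here if any of its windows held the letters, and some had several windows (Kcnk2 had 4). The member figures therefore cannot be set against the shares of all windows. A match is a description of these letters and not a binding site.

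Library totals ran from 3904901 to 11982411 counts in the injured 48 h flush, 2657169 to 4346847 in the injured 3 h flush, 1755773 to 5294304 in the uninjured flush and 13853003 to 15560008 in the tissue. Counted members numbered 38 to 44, 34 to 40, 35 to 40 and 69 to 72 per library in the same groups. The summed level of 10 endothelial markers was 7506 to 11420 CPM (counts-per-million units) in the injured 48 h flush, 14430 to 16630 in the injured 3 h flush, 12290 to 14440 in the uninjured flush and 2187 to 3306 in the tissue. That of 9 smooth muscle markers was 995.7 to 1766, 870.6 to 1306, 161.3 to 1291 and 25390 to 26180 CPM in the same groups. No marker of either list was at 0 throughout a group, apart from 2 smooth muscle markers in the uninjured flush. Injured 48 h library E2A stood apart, with 10380 CPM over 7 fibroblast markers, against a group median of 655.4, and with 407.5 CPM over 4 mesothelial markers, against a median of 0.166.

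Compared per exon length, the most abundant channel of the injured 48 h flush was the small-conductance channel Kcnn3, at 19.9 ± 5.32 RPKM (reads per kilobase of exon, scaled to the library total; mean ± SD, n = 9). It was followed by the sodium-activated potassium channel Kcnt2 at 15.4 ± 4.22, the magnesium- and calcium-permeable channel Trpm7 at 14.8 ± 2.34, the mechano- and heat-sensitive calcium channel Trpv4 at 10.2 ± 2.66, Kcnn4 at 8.07 ± 2.77 and Kcnj2 at 7.20 ± 1.68 RPKM. The mean ± SD ranges of neighbours in this order overlapped. In the injured 3 h flush Trpv4 came first, at 29.5 ± 6.03 RPKM (n = 5), before Kcnt2 at 21.6 ± 6.46 and Kcnn3 at 20.2 ± 4.998 RPKM. Kcnt2 led in the uninjured flush, at 39.9 ± 7.12 RPKM (n = 9), followed by the channel-interacting protein Kcnip4 at 27.6 ± 17.1 and Kcnn3 at 26.8 ± 6.78 RPKM. The tissue had another order, led by Kcnmb1 at 126.4 ± 13.3 RPKM (n = 3), the inward rectifier Kcnj15 at 43.5 ± 20.7 and Kcnj8 at 25.1 ± 1.46 RPKM. Of the 114 members, 16 were counted in all 26 libraries.

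The first comparison asked which channels belong to the lumen and which to the wall. Between the injured 48 h flush and the tissue, 15 of the 50 tested members were higher in the flush (called luminal here) and 15 were lower (called wall). Among all 13884 genes tested, 22% were higher and 13.5% lower (edgeR quasi-likelihood test, Benjamini-Hochberg adjusted p under 0.05). The median log2 fold change, flush over tissue, was 0.39 over the members and 0.15 over all genes. A higher or lower level in such bulk samples can mean more or fewer cells of a type, or more or less RNA per cell, and these cannot be told apart.

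Kcnn3 had 93.1, 195 and 281 CPM (lowest, median and highest of 9) in the injured 48 h flush, against 95.3, 33.5 and 51.5 CPM in the 3 tissue libraries. The highest tissue value overlapped the flush only through library E2A, which had the 93.1. The log2 fold change was 1.79 ± 0.31 (SE, adjusted p = 5.23e-05). Kcnn4 had 15.1, 39.8 and 58.7 CPM in the flush, against 16.7, 3.41 and 6.54 CPM in the tissue (log2 fold change 2.22 ± 0.61, adjusted p = 0.00542). Tissue library E1A made the Kcnn4 difference smaller, and without it the log2 fold change was 3.06. Trpv4 had 18.6, 44.5 and 55.4 CPM in the flush, against 20.2, 10.2 and 11.4 CPM in the tissue (1.58 ± 0.29, adjusted p = 9.92e-05). For both genes, the tissue library E1A and the flush library E2A were where the groups met. Kcnj2 had 21.9, 40.7 and 48.1 CPM in the flush, against 15.98, 10.9 and 14.9 CPM in the tissue, with no overlap (1.496 ± 0.38, adjusted p = 0.00321). The magnesium channel Trpm6 did not overlap either, at 8.85, 13.0 and 18.8 CPM in the flush, against 1.136, 0.797 and 2.63 CPM in the tissue (3.10 ± 0.54, adjusted p = 6.08e-05), and without tissue library E3A its log2 fold change was 3.75.

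The other 10 luminal members were low in both places or close to absent from the tissue. Kcnd2, a voltage-gated channel known from neurons and heart, had 0, 6.60 and 21.1 CPM in the injured 48 h flush, against 0.487, 0.145 and 0 CPM in the tissue (log2 fold change 5.40 ± 1.19, adjusted p = 0.000785). Kcnip1, a calcium-binding partner of Kcnd channels, was higher by 2.80 ± 0.74 on the log2 scale (adjusted p = 0.00414), or by 2.40 without flush library E2A, which had its highest value, and the inward rectifier Kcnj13 by 2.70 ± 0.75 (adjusted p = 0.00634). Exons of Kcnj13 share 49.1% of their bases with Gigyf2 on the other strand, so its counts are uncertain where strand was not used. Kcnv1, a silent voltage-gated subunit, Trpc6 and Trpc5 had no count in the 3 tissue libraries. Against a floor of 3 counts over that group, they were at least 26.6-fold (Kcnv1), 13.8-fold (Trpc6) and 26.8-fold (Trpc5) higher in the flush. All 3 passed the low-count filter through flush libraries, so no wall call was open to them. The same held for Kcnd2, and for Trpa1, Kcnj16 and Trpm8 below. The irritant-sensing channel Trpa1 had 217 counts in the flush and 3 in the tissue, a ratio of 38.0 per total (exact 95% counting interval 12.8 to 185.7). The inward rectifier Kcnj16 had 201 and 1, a ratio of 106 (18.7 to 4192). The remaining pair were Kcne3, an accessory subunit (2.10 ± 0.75 on the log2 scale, adjusted p = 0.0292), and the cold-sensing channel Trpm8 (142 and 2 counts, a ratio of 37.3, 10.1 to 311). These low members were the less stable ones: Kcne3, Kcnip1, Kcnj13, Kcnv1, Trpc5, Trpc6, Trpm8 and Kcnj16 lost their call in the fit with mouse as a block, and Trpc5 and Trpm8 also lost it without any 1 of the 3 tissue libraries.

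The wall members included the abundant channels of the tissue. Kcnmb1, the BK subunit of smooth muscle, had 1.83, 5.24 and 25.1 CPM in the injured 48 h flush, against 534.4, 582.9 and 471.9 CPM in the tissue. The log2 fold change was -6.24 ± 0.61 (adjusted p = 9.04e-09), and -6.68 without flush library E2A, which had the 25.1. The BK pore Kcnma1 had 1.77, 3.78 and 9.14 CPM in the flush, against 98.7, 141 and 147.5 CPM in the tissue (-4.85 ± 0.44, adjusted p = 2.5e-09). The inward rectifier Kcnj15 had 1.75, 9.37 and 15.6 CPM in the flush, against 238.7, 419 and 165.6 CPM in the tissue (-5.01 ± 0.47, adjusted p = 4.68e-09). None of these 3 overlapped between the groups. Kcnj8 had 0, 0.714 and 27.1 CPM in the flush, against 67.8, 60.3 and 63.8 CPM in the tissue (-3.87 ± 1.20, adjusted p = 0.0169), and without flush library E2A, which had the 27.1, the log2 fold change was -5.28. The Kcnj8 call was lost without tissue library E1A, without E3A and without batch 1.

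Several voltage-gated channels were nearly confined to the tissue in these libraries. Kcnd3, Kcnc4, Kcne4, Kcnh2 and Kcns3 passed the low-count filter through the tissue libraries, so no luminal call was open to them. Kcnd3 had 0 counts in all 9 injured 48 h flushes and 40.4 to 43.3 CPM in the tissue, and was at least 1051-fold lower in the flush against the same floor. Kcnc4 also had none, against 12.6 to 18.3 CPM in the tissue, and was at least 400.3-fold lower. Kcne4, an accessory subunit of Kcnq channels, had 1 count in the flush and 972 in the tissue, a ratio of 1850 (331.2 to 73140). Kcnh2, the cardiac repolarizing channel, had 0, 0 and 1.29 CPM (lowest, median and highest) in the flush, against 29.8, 34.4 and 40.8 CPM in the tissue (log2 fold change -6.85 ± 1.139, adjusted p = 0.000292). The electrically silent subunit Kcns3 had 11 counts over the 9 flushes and 13.2 to 13.6 CPM in the tissue (-6.23 ± 1.44, adjusted p = 0.00161). The two-pore channel Kcnk3 had none in the flush and 145 counts in the tissue, at least 91.98-fold lower, and it was uneven among the tissue libraries, at 7.63, 3.04 and 0.677 CPM. It did not pass the filter in the fit with mouse as a block, and that fit lost calls that included those of Trpm7, Trpc1 and the steroid- and heat-sensitive channel Trpm3 (-2.58 ± 0.97 without the block, adjusted p = 0.0396).

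The least contrasted wall members were present throughout. Trpm7 had 148, 165 and 232 CPM in the flush, against 239.6, 224 and 237 CPM in the tissue (log2 fold change -0.48 ± 0.12, adjusted p = 0.00255), and without flush library E2A, which had the 232, the log2 fold change was -0.58. Trpc1, a subunit of calcium-permeable channels, differed by -0.87 ± 0.25 (adjusted p = 0.00667) and Kcnq5 by -0.89 ± 0.26 (0.00758). The Trpc1 call was also lost without tissue library E2A and without batch 1. With mouse as a block, 7 of 49 members were higher and 12 lower in the flush, and 1482 of all 13583 genes were higher and 1236 lower. All 30 called members kept the same sign within each of the 3 batches, each of which held 1 tissue library. They had been picked by the test on these same libraries, so this agreement gives no separate support.

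**Figure D1:**
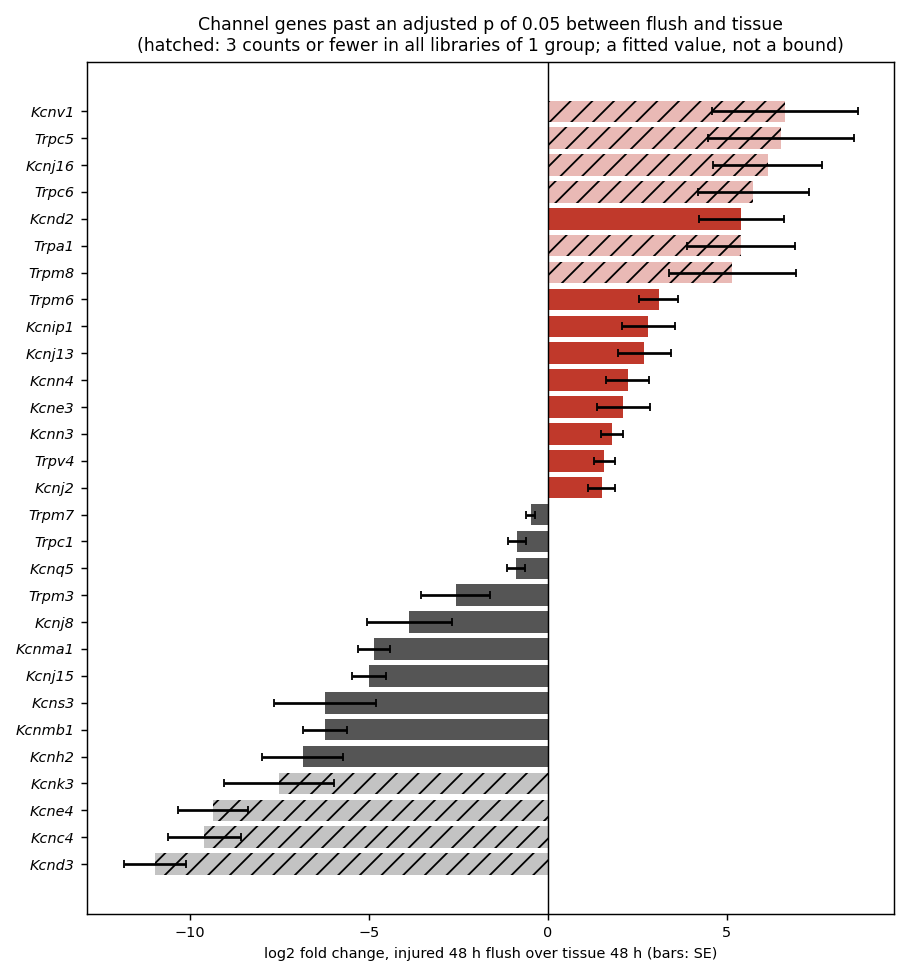
Log2 fold change of 29 members past an adjusted p of 0.05 between the injured 48 h flush (n = 9) and the tissue (n = 3), with SE bars; red bars are higher in the flush and grey bars higher in the tissue. Hatched bars have 3 counts or fewer in 1 group; Kcnmb1 lies at -6.24, Kcnn3 at 1.79.

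Textbook lists of channels, chosen with earlier results known, were read in the same comparison. Of 12 channels named for endothelium 8 were tested, and 5 were higher in the flush than in the tissue (Kcnj2, Kcnn3, Kcnn4, Trpv4 and Trpa1) and 1 lower (Trpc1), with a median log2 fold change of 1.54. Of 15 named for smooth muscle 12 were tested, and 7 were lower (among them Kcnma1, Kcnmb1, Kcnj8, Kcnq5, Kcnk3 and Kcne4) and 1 higher (Trpc6), with a median of -1.56. Among all genes tested, 22% were higher and 13.5% lower. Kcnk6, a two-pore channel of the endothelial list, differed by 0.51 ± 0.66 (adjusted p = 0.615), Kcnq1 by 1.63 ± 0.95 (0.192) and Trpm4, a calcium-activated sodium channel, by -0.19 ± 0.50 (0.825). Kcna2, a voltage-gated channel of smooth muscle, differed by -1.49 ± 1.73 (0.569). The sensory and leukocyte channel Trpv2 differed by -3.07 ± 1.42 (0.104), and Kcnip3, of the leukocyte list, by 0.28 ± 0.67 (0.8). Kcnt2 was in neither class, at 0.51 ± 0.21 (0.0657).

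The second comparison set the injured 48 h flush against the uninjured flush. Of the 50 tested members, 8 were higher and 21 lower at 48 h, while among all genes tested 24.6% were higher and 18% lower. The tested members Kcnc4 and Kcnd3 had no count in either group. The median log2 fold change was -0.77 over the members and 0.19 over all genes. Of the 15 luminal members, 1 was higher and 9 lower. Of the 15 wall members, 2 were higher and 7 lower, and of the other 20, 5 were higher and 5 lower. The classes had been set with the same 9 injured 48 h libraries, so this split gives no separate support. The counts of higher and lower members depended on the uninjured libraries. With only the 3 uninjured libraries of at least 3000000 counts, a choice made after seeing the data, 3 of 47 tested members were higher and 5 lower, and 1616 of all 13480 genes tested were higher and 774 lower. Without batch 1, 6 of 51 members were higher and 6 lower, and 2341 of all 13955 genes were higher and 1303 lower. With mouse as a block, 34 members passed the filter, of which 2 were higher and 17 lower, and 2477 of all 10913 genes were higher and 2184 lower. Without injured 48 h library E2A, 7 of 50 members were higher and 20 lower, and 3513 of all 13823 genes were higher and 2711 lower. Of the 29 called members 26 had the same sign within each of the 3 batches, and Kcnh2, Kcnd1 and Kcnk3 did not. This tally, too, covers members picked by the test on these libraries and gives no separate support. The lower call of the wall member Kcnk3 rested on 11 counts in uninjured library E1C, with 0 in the other 8 uninjured and all 9 injured 48 h flushes.

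Kcnt2 had the smallest adjusted p of the members. This channel opens with intracellular sodium and spans 365.9 kb on chromosome 1. It had 78.2, 98.3 and 169 CPM in the injured 48 h flush, against 177, 283 and 346 CPM in the uninjured flush. All 9 injured libraries lay below all 9 uninjured ones, and the log2 fold change was -1.38 ± 0.15 (adjusted p = 1.26e-07). Within the 3 batches the mean log2 CPM, injured 48 h minus uninjured, differed by -1.25, -1.28 and -1.65. The call held under every alternative run, as did that of Trpc1.

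Trpc1 had 12.2, 18.1 and 23.4 CPM in the injured 48 h flush, against 20.7, 32.9 and 50.6 CPM in the uninjured flush (log2 fold change -0.97 ± 0.19, adjusted p = 0.000192). Only the ends of the ranges overlapped. Within batches the differences were -1.19, -0.38 and -1.19.

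Among the channels named for endothelium, Trpv4 had 18.6, 44.5 and 55.4 CPM in the injured 48 h flush, against 45.6, 58.1 and 106 CPM in the uninjured flush (log2 fold change -0.56 ± 0.19, adjusted p = 0.0172), and the call was lost without uninjured library E1C (adjusted p = 0.0543), which had the 106. Kcnj2 had 21.9, 40.7 and 48.1 CPM at 48 h, against 27.5, 78.1 and 97.3 CPM in the uninjured flush (-0.82 ± 0.25, adjusted p = 0.0112). Within batches Trpv4 differed by -0.70, -0.87 and -0.15 and Kcnj2 by -0.90, -0.50 and -0.90. Both calls were lost without batch 1 and with only the 3 uninjured libraries of at least 3000000 counts. In the latter fit the log2 fold changes were -0.76 for Trpv4 (adjusted p = 0.0535) and -0.78 for Kcnj2 (0.121). Kcnn3 had 93.1, 195 and 281 CPM, against 192, 267.5 and 388.5 CPM in the uninjured flush, a difference of -0.43 ± 0.20 that did not pass (adjusted p = 0.0801). Kcnn4 differed by 0.17 ± 0.38 (adjusted p = 0.732), and its uninjured values split by batch, at 60.2 to 86.0 CPM in the 3 libraries of batch 1 and 13.4 to 29.9 CPM in the other 6. Within batches Kcnn4 differed by -0.47, 0.85 and 1.06, so its direction was not the same in each. Kcnk6 differed by 0.86 ± 0.46 (adjusted p = 0.137). The wall member Trpm7 differed by -0.25 ± 0.09 (adjusted p = 0.0259). The Trpm7 call was lost in 3 of 18 fits that left out 1 library, with no low-count filter and without batch 1. It was also lost with only the 3 uninjured libraries of at least 3000000 counts, where the log2 fold change was -0.15.

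Higher members at 48 h were mostly low ones. The stretch-sensitive two-pore channel Kcnk2 had 6.85, 13.0 and 15.6 CPM in the injured 48 h flush, against 0, 0.452 and 6.52 CPM in the uninjured flush, with no overlap (log2 fold change 2.41 ± 0.65, adjusted p = 0.00459). Trpm6 had 8.85, 13.0 and 18.8 CPM, against 1.83, 6.01 and 10.1 CPM (1.06 ± 0.32, adjusted p = 0.0101). The other 6 had no count in any uninjured library. Among them, against a floor of 3 counts over the uninjured group, Kcnj8 was at least 24.75-fold higher, Kcna2 at least 21.9-fold, Trpv2 at least 13.45-fold, Kcnd1 at least 9.996-fold and Kcnh2 at least 3.09-fold. Library E2A had the highest value of Kcnj8 (27.1 CPM), Kcna2 (34.3 CPM) and Kcnd1 (14.3 CPM). The Kcnd1 call was lost without E2A, and the Kcnh2 call was lost in 13 of 18 fits that left out 1 library. None of these 6 passed the filter when only these groups entered the fit, with or without mouse as a block, so that those fits give no value for them. Kcnk2 and Trpm6 stayed higher in both, but the Kcnk2 call was lost with only the 3 uninjured libraries of at least 3000000 counts, and the Trpm6 call without batch 1. The calls of Kcnj8, Kcna2, Trpv2, Kcnd1 and Kcnh2 were also lost with only those 3 uninjured libraries. Those of Trpv2, Kcnd1 and Kcnh2 were lost without batch 1 as well. Markers of several cell types were also higher in the injured 48 h flush than in the uninjured one, with 6 of 9 for smooth muscle, 6 of 7 for fibroblasts, 6 of 6 tested for macrophages, 6 of 6 for neutrophils, 4 of 4 for mesothelium and 3 of 4 for B cells, while 6 of 10 endothelial markers were lower and 2 higher. The macrophage sum was 540 to 5112 CPM in the injured 48 h flush and 63.9 to 202 CPM in the uninjured flush. The mesothelial sum was 0 to 407.5 CPM in the injured 48 h flush, with a median of 0.166 and the highest in E2A. Of the other lists, 3 of 4 tested platelet, 2 of 5 T and NK, 2 of 3 Schwann and 2 of 4 neuron markers were higher. For erythroid cells it was 0 of 6 and for adipocytes 0 of 4. Over all genes tested 24.6% were higher and 18% lower. The part of these markers in the higher and lower calls of members was not tested.

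**Figure D2:**
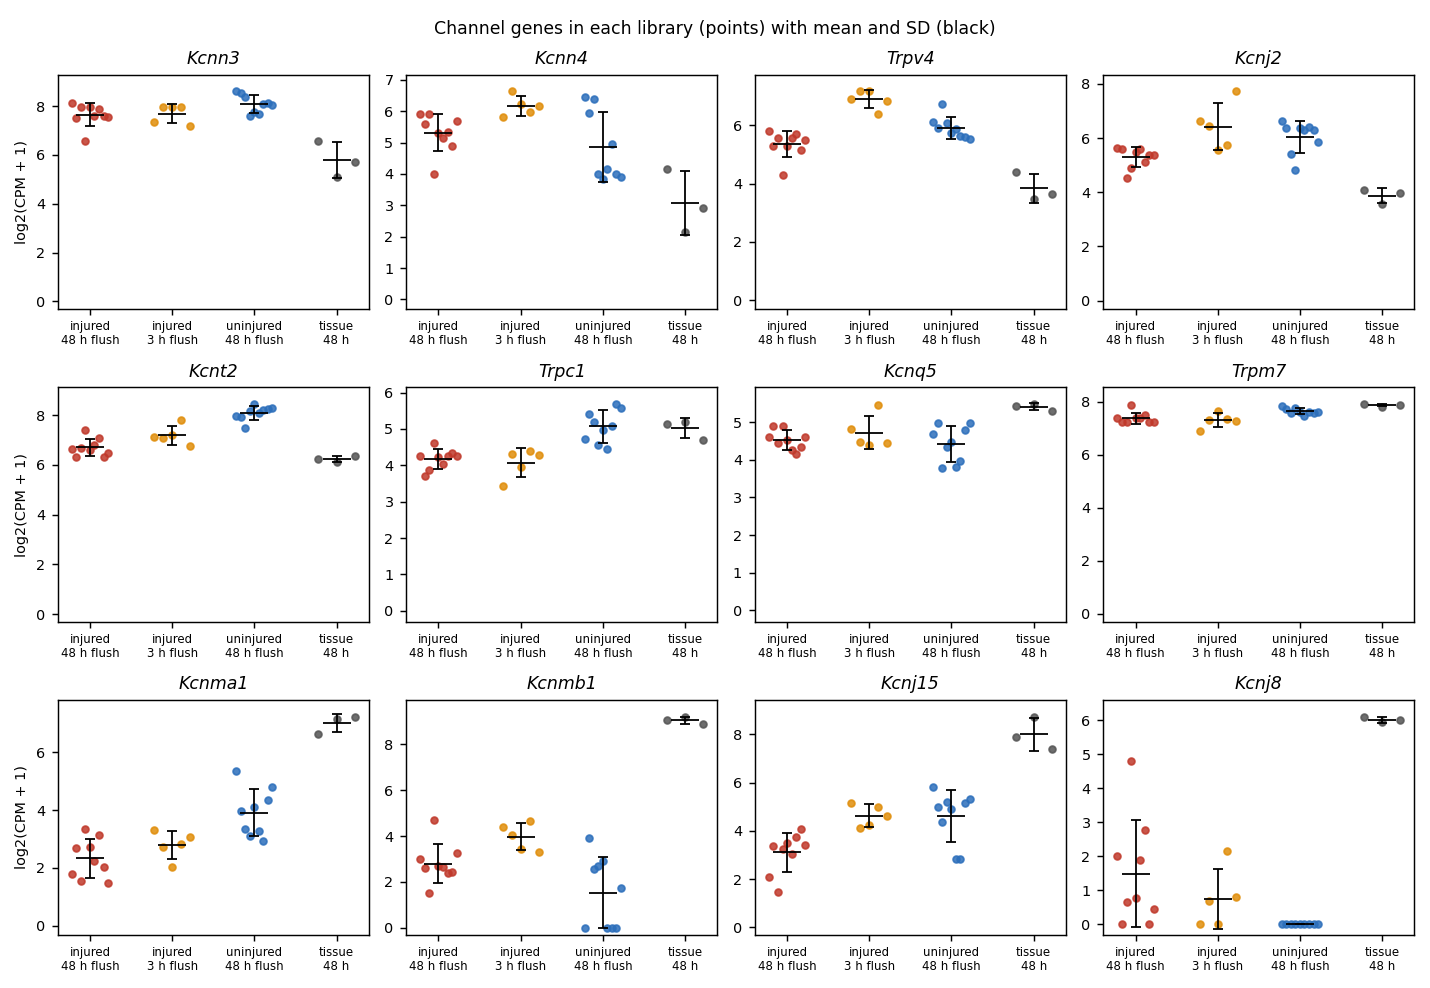
Level of 12 members in each library as log2(CPM + 1), one panel per gene, with the groups on the x axis, points for libraries and black bars for mean and SD. On average Trpv4 is highest in the 5 injured 3 h flushes, Kcnt2 in the 9 uninjured flushes, and Kcnma1, Kcnmb1, Kcnj15 and Kcnj8 in the 3 tissue libraries.

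A further set of members was lower at 48 h and, within the uninjured flush, was mostly higher in the libraries of smaller total. Kcnd2 had 0, 6.60 and 21.1 CPM in the injured 48 h flush, against 17.6, 68.9 and 142 CPM in the uninjured flush (log2 fold change -2.81 ± 0.57, adjusted p = 0.000389). Within the uninjured group its CPM was 17.6 to 34.2 in the 3 libraries of 3878345 to 5294304 counts and 39.6 to 142 in the 6 of 1755773 to 2369854 counts. Its raw counts varied less, from 95 to 252 per uninjured library. Kcnj13 had 0.885, 4.17 and 10.6 CPM at 48 h, against 11.4, 25.4 and 65.8 CPM in the uninjured flush (-2.56 ± 0.47, adjusted p = 0.000109), with 11.4 to 16.2 CPM in the 3 uninjured libraries of larger total and 14.2 to 65.8 in the 6 of smaller total. Kcnip1 had 6.23 to 15.4 and 15.0 to 54.8 CPM in the same 2 sets, and Kcnb2, a voltage-gated channel known from neurons, 2.61 to 22.6 and 18.4 to 82.6 CPM. Lower calls of Kcnip4, Kcnv1, Trpc5, Trpc6 and the calcium channel Trpv5 were lost in 4 to 13 of 18 fits that left out 1 library.

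The wall members Kcnma1 and Kcnj15 were also lower at 48 h, and in the uninjured flush their highest values were in libraries of smaller total. Kcnma1 had 1.77, 3.78 and 9.14 CPM at 48 h, against 6.58, 14.7 and 39.4 CPM in the uninjured flush (log2 fold change -1.87 ± 0.36, adjusted p = 0.000229), with 6.58 to 9.13 CPM in the 3 uninjured libraries of larger total and 7.51 to 39.4 in the other 6. Kcnj15 differed by -1.71 ± 0.39 (adjusted p = 0.00116), with 6.05 to 19.8 and 29.1 to 55.7 CPM in those sets. With only the 3 larger uninjured libraries, the calls of Kcnd2, Kcnj13, Kcnip1, Kcnb2, Kcnma1, Kcnj15 and Trpa1 were all lost, with log2 fold changes of -1.51, -1.44, -0.35, -1.40, -0.88, -0.29 and -1.12 in that order. Lower calls over all genes fell to 774 in that fit, against 2501 with all libraries. Trpa1 had 7.56 to 10.7 CPM in the 3 larger and 3.34 to 42.7 in the 6 smaller uninjured libraries. Kcnt2 had 177 to 296 CPM in the 3 larger and 245 to 346 in the 6 smaller uninjured libraries, and its call was kept at -1.22 (adjusted p = 0.000497). The 48 h calls of Kcnip1, Kcnb2, Kcnj15 and Trpa1 were also lost without batch 1, while those of Kcnd2, Kcnj13 and Kcnma1 were kept. Batch 1 held the uninjured libraries of smallest total, E1B and E1A, at 1755773 and 1835038 counts. Totals were higher in the injured 48 h flush than in most uninjured ones, and their part in these results was not tested beyond these fits. The 5 neuronal markers summed to 153 to 252 CPM in the injured 48 h flush and 33.3 to 158 CPM in the uninjured flush, and their part in these results was not tested. Kcnd2, Kcnip1, Kcnb2 and Kcnma1 span 514.3, 363.8, 436.5 and 725.1 kb, whereas Kcnj15, Trpa1 and Kcnj13 span 42.7, 46.2 and 8.37 kb. In this comparison the median span was 65.6 kb for the 21 lower members and 58.1 kb for the 21 not called. It was 29.0 kb for the 8 higher members.

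**Figure D3:**
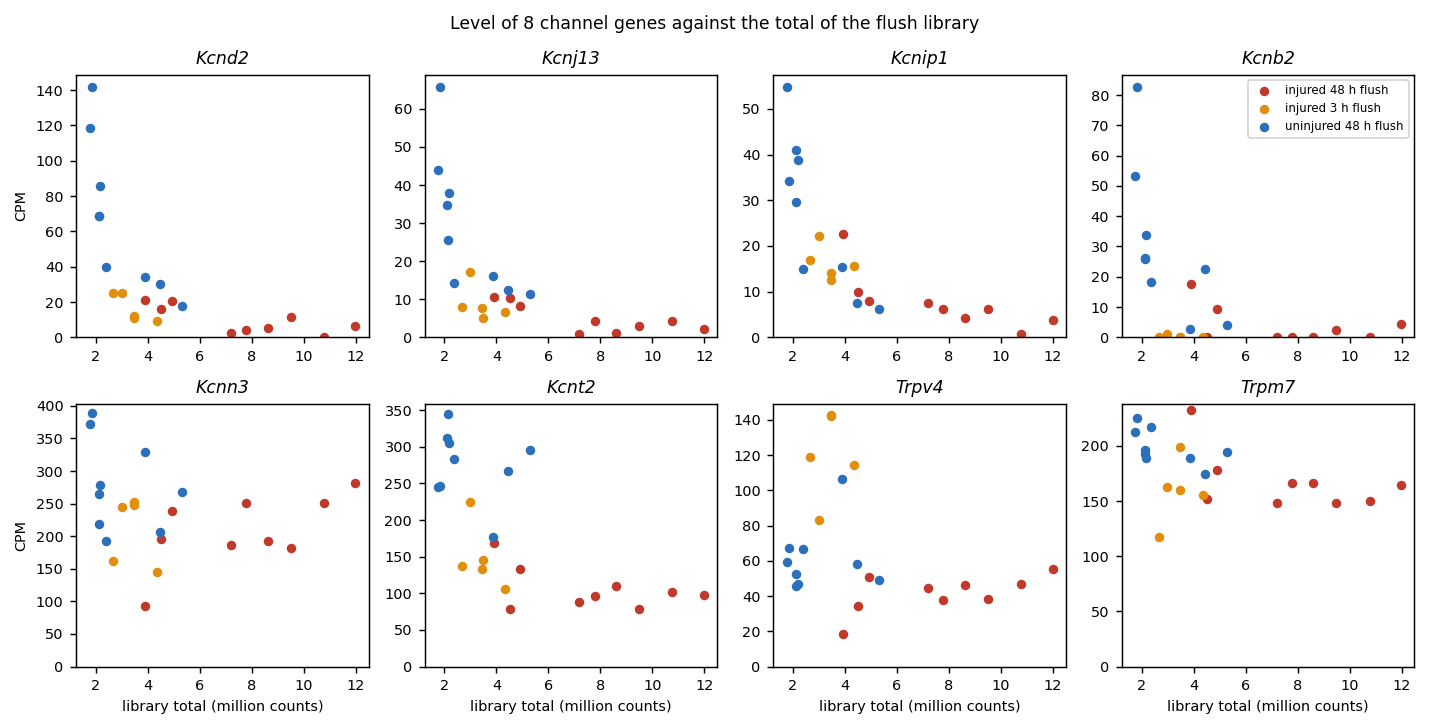
CPM of 8 members (y axis) against the library total (x axis) for the 9 injured 48 h, 5 injured 3 h and 9 uninjured flush libraries. Kcnd2, Kcnj13, Kcnip1 and Kcnb2 are highest in the uninjured libraries of smallest total, whereas Trpm7 stays between 117 and 232 CPM over all totals.

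The third comparison set the injured 3 h flush against the uninjured flush. Of the 50 tested members, 3 were higher and 14 lower, while among all genes tested 16.1% were higher and 11.1% lower. Among the 50 were 6 with no count in either group, which could not be called. The median log2 fold change was -0.27 over the members (-0.21 with members of 3 counts or fewer in a group at their bound) and 0 over all genes. With only the 3 uninjured libraries of at least 3000000 counts, 3 were higher and 5 lower, and 1420 of all 13480 genes were higher and 1153 lower. Without batch 1, 5 were higher and 3 lower, and 1741 of all 13955 genes were higher and 831 lower. Without library C3B, 2 of 50 members were higher and 7 lower, and 1790 of all 13866 genes were higher and 1028 lower. Of the luminal members 1 was higher and 4 lower, of the wall members 1 was higher and 4 lower, and of the other 20, 1 was higher and 6 lower. This comparison shares its uninjured libraries with the one before. Of the 17 called members, 16 had the same sign within each batch, and Trpv2 did not. Here as well, the members had been picked by the test on these libraries, so the tally gives no separate support.

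Trpv4 was higher in the injured 3 h flush than in the uninjured flush. It had 119, 142, 143, 83.1 and 114 CPM in the 5 injured 3 h flushes, against 45.6, 58.1 and 106 CPM (lowest, median and highest of 9) in the uninjured flush. Only uninjured library E1C overlapped the injured ones, and the log2 fold change was 0.97 ± 0.21 (adjusted p = 0.0012). Within batches Trpv4 differed by 0.79, 0.89 and 1.27. The call was lost with only the 3 larger uninjured libraries, which include E1C. Kcnmb1 was also higher, at 20.3, 15.6, 9.70, 24.5 and 8.86 CPM, against 0, 2.33 and 14.1 CPM in the uninjured flush (2.25 ± 0.67, adjusted p = 0.014). These Kcnmb1 levels were far below the 472 to 583 CPM of the tissue, and the call was lost with only these groups in the fit and with DESeq2. Of 9 smooth muscle markers 5 were higher too. Trpv2 was the third, and its call rested on library C3B, with 11.9 CPM against 0 in the other 4 injured 3 h flushes. Blood cell markers were also higher at 3 h, with 6 of 6 for neutrophils, 6 of 6 for erythroid cells, 3 of 4 tested for platelets, 3 of 4 for B cells and 3 of 6 tested for macrophages, and the neutrophil sum was 98.6 to 4131 CPM in the injured 3 h flush and 31.3 to 164 CPM in the uninjured flush. For T and NK cells it was 2 of 5 tested, and over all genes tested 16.1% were higher. The part of these markers in the 3 higher calls was not tested.

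Kcnt2 was lower at 3 h as well, at 137, 134, 145, 224 and 106 CPM, against 177, 283 and 346 CPM in the uninjured flush. Library C2C alone overlapped, and the log2 fold change was -0.89 ± 0.18 (adjusted p = 0.000601). Within batches Kcnt2 differed by -0.70, -0.72 and -1.52, where batch 3 held 1 injured 3 h library. Trpc1 had 9.73, 18.8, 14.4, 19.9 and 18.5 CPM at 3 h, all below the 20.7 to 50.6 CPM of the uninjured flush (-1.06 ± 0.23, adjusted p = 0.00108). Both calls held under every alternative run. Kcnip3, a calcium-binding protein that partners Kcnd channels and also acts in the nucleus, had 0, 1.88, 12.8, 0 and 1.01 CPM at 3 h, all below the 18.5 to 37.5 CPM of the uninjured flush (-3.02 ± 0.66, adjusted p = 0.0012), and without library C2A, which had the 12.8, the log2 fold change was -5.03. At 48 h Kcnip3 was again below every uninjured library, at 4.16, 8.60 and 17.1 CPM (-1.45 ± 0.48, adjusted p = 0.018). DESeq2 gave no adjusted p for Kcnip3. At 48 h the call was lost without batch 1 and with only the 3 larger uninjured libraries. Trpm7 differed by -0.32 ± 0.11 (adjusted p = 0.0262), and its call was lost without C1A or without C3B. It was also lost without batch 1 and with only the 3 larger uninjured libraries.

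Several members described above as lower at 48 h were lower at 3 h too. Kcnd2 differed by -2.04 ± 0.70 (adjusted p = 0.0328), Kcnj13 by -1.70 ± 0.56 (0.0263), Kcnma1 by -1.39 ± 0.45 (0.0228) and Trpa1 by -3.33 ± 1.04 (0.0192). Kcnb2 had 3 counts over the 5 injured 3 h flushes and 617 over the uninjured ones, a ratio of 118 per total (40.1 to 572). All of these calls were lost without batch 1 and with only the 3 larger uninjured libraries. Among endothelial channels that did not pass, Kcnj2 differed by 0.52 ± 0.29 (adjusted p = 0.194), Kcnn4 by 0.97 ± 0.44 (0.103) and Kcnn3 by -0.41 ± 0.24 (0.209).

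The comparison of 48 h with 3 h after injury used the same segment and no uninjured library. No member was higher at 48 h and 4 were lower, while among all genes 9.7% were higher and 8.59% lower (edgeR; 6 members were higher at an unadjusted p under 0.05, and 3 were called higher by DESeq2). Among the 50 tested members were 3 with no count in either group. Trpv4 had 18.6, 44.5 and 55.4 CPM at 48 h, all below the 83.1 to 143 CPM at 3 h (log2 fold change -1.53 ± 0.21, adjusted p = 9.24e-06). Within batches the differences were -1.48, -1.76 and -1.41. Kcnj2 had 21.9, 40.7 and 48.1 CPM at 48 h, against 98.2, 86.9, 45.7, 52.1 and 211 CPM at 3 h (-1.33 ± 0.29, adjusted p = 0.00152). It overlapped only through 3 h library C2A, and within batches differed by -1.32, -0.31 and -2.45. Both calls held under every alternative run. Kcnj15 had 1.75, 9.37 and 15.6 CPM at 48 h, below the 16.3 to 35.1 CPM at 3 h (-1.53 ± 0.44, adjusted p = 0.0154), and the call was lost without batch 1 and without library C1A. Kcnt2 passed narrowly, at -0.50 ± 0.17 (adjusted p = 0.0465), and was lost in 11 of 14 fits that left out 1 library. Markers moved between the times as well. The endothelial sum was 7506 to 11420 CPM at 48 h and 14430 to 16630 CPM at 3 h, and the macrophage sum 540 to 5112 CPM at 48 h and 158 to 918 CPM at 3 h; their part in the Trpv4 and Kcnj2 differences was not tested.

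**Figure D4:**
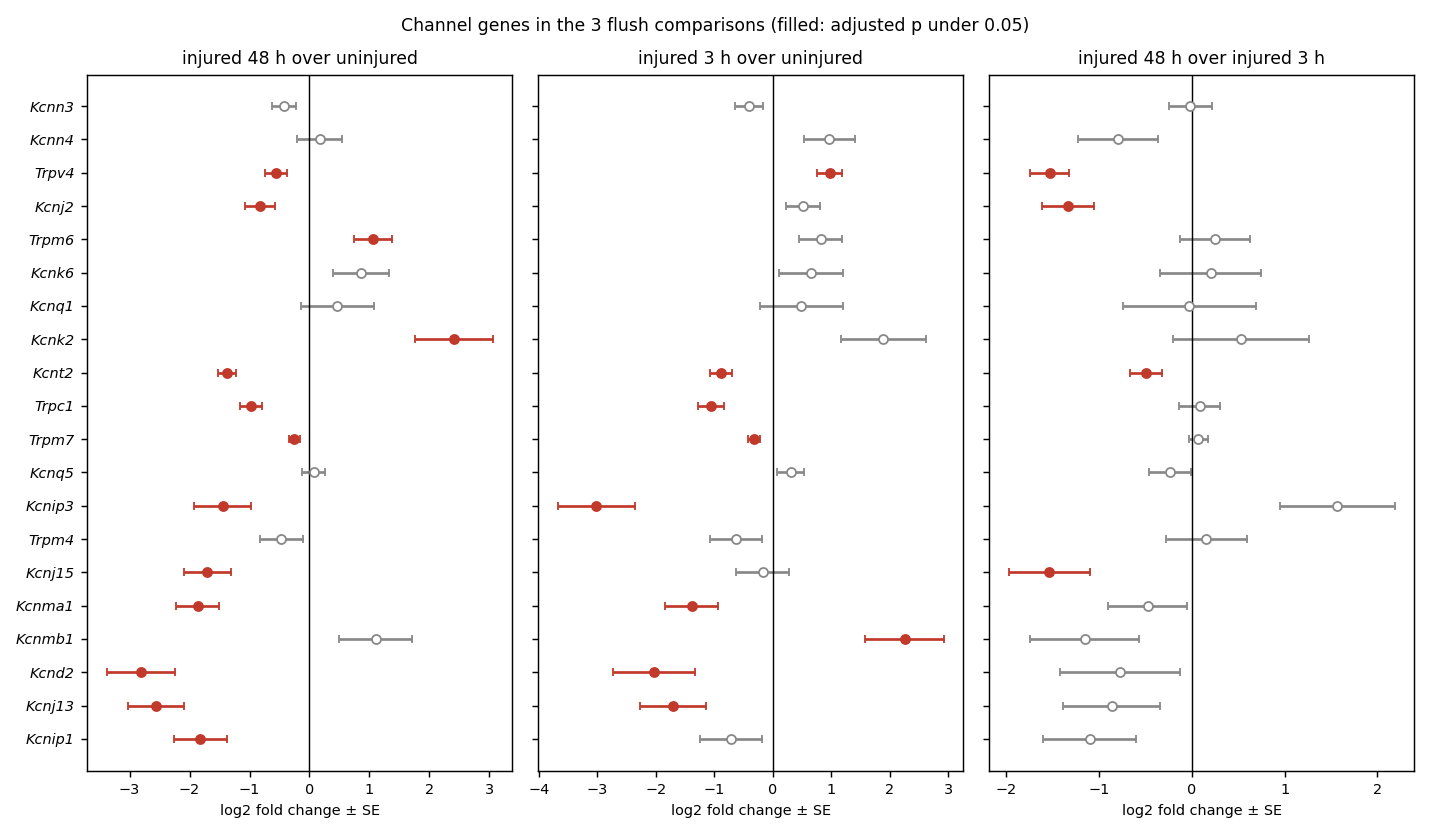
Log2 fold change with SE of 20 members in the 3 comparisons between flush groups; filled red points passed an adjusted p of 0.05 and open grey points did not. Trpv4 lies at -0.56, 0.97 and -1.53 in the panels from left to right, and Kcnt2 at -1.38, -0.89 and -0.50.

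Of the 8 tested channels of the endothelial list, 1 was higher and 4 lower at 48 h than in the uninjured flush, 2 were higher and 2 lower at 3 h than in the uninjured flush, and 2 were lower at 48 h than at 3 h. Of the 12 of the smooth muscle list, 3 were higher and 4 lower, then 1 was higher and 2 lower, and then 0 of the 12 passed, in the same order of comparisons. Of the 3 tested channels of the leukocyte list (Kcnn4, Trpv2 and Kcnip3), 1 was higher and 1 lower at each time against the uninjured flush, and 1, Kcnn4, was higher in the injured 48 h flush than in the tissue. Among all genes tested, 24.6% were higher and 18% lower at 48 h than in the uninjured flush. At 3 h the shares were 16.1% and 11.1%, and between 48 h and 3 h 9.7% and 8.59%. Between the injured 48 h flush and the tissue they were 22% and 13.5%.

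Partners of these channels and genes of calcium handling were followed as a list of 45, of which 37 were tested. Between the injured 48 h flush and the tissue 11 were higher and 18 lower, where over all genes tested 22% were higher and 13.5% lower. Abcc9, which pairs with Kcnj8 in the vascular ATP-sensitive channel, averaged 29.6 ± 25.5 CPM in the injured 48 h flush and 1376 ± 135 CPM in the tissue (SD), a log2 fold change of -5.58 ± 0.49 (adjusted p = 1.19e-09). Cacna1c, the pore of the L-type calcium channel of smooth muscle, averaged 4.76 ± 5.56 and 136.9 ± 23.6 CPM in the same groups (-4.87 ± 1.21, adjusted p = 0.0024). Piezo1, the stretch-gated cation channel of endothelium, averaged 180.5 ± 29.4 and 43.9 ± 9.04 CPM (2.04 ± 0.23, adjusted p = 1.14e-07). The IP3 receptors split, with Itpr2 higher by 1.34 ± 0.16 (adjusted p = 2.02e-07) and Itpr3 by 1.89 ± 0.25 (1.64e-06) in the flush, and Itpr1 at -1.10 ± 0.14 (6.66e-07).

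Against the uninjured flush, 10 genes of the same list were higher and 8 lower at 48 h, and 9 were higher and 7 lower at 3 h. Between 48 h and 3 h, 2 were higher and 11 lower. Over all genes tested, 24.6% were higher and 18% lower in the first of these comparisons, 16.1% and 11.1% in the second, and 9.7% and 8.59% in the third. Piezo1 averaged 180.5 ± 29.4 CPM at 48 h and 115.7 ± 31.8 CPM in the uninjured flush (log2 fold change 0.64 ± 0.15, adjusted p = 0.00122), and 209.9 ± 26.4 CPM at 3 h (0.85 ± 0.17 over uninjured, adjusted p = 0.000432). Atp1b3, a subunit of the sodium pump, averaged 281 ± 55.4 CPM at 48 h, 425 ± 125 CPM at 3 h and 160.5 ± 28.6 CPM in the uninjured flush, higher at both times (adjusted p = 5.79e-05 at 48 h and 2.73e-07 at 3 h). Itpr2 was lower at 48 h than at 3 h by -0.87 ± 0.12 (adjusted p = 8.36e-06) and than in the uninjured flush by -0.72 ± 0.10 (6.56e-06). The calcium-activated chloride channel Ano1 was counted in all 9 injured 48 h flushes, at 20.4 to 66.3 CPM, and had no count in the 5 injured 3 h and the 9 uninjured flushes. At 48 h it exceeded the uninjured flush at least 417-fold and the 3 h flush at least 238-fold, against a floor of 3 counts over each group, and averaged 99.6 ± 25.7 CPM in the tissue.

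The 64 members below the filter included 13 with no count in any library, among them the heat-sensing channel Trpv1. Another 35 had 1 to 25 counts over all 26 libraries, and 16 had more. Of these 64 members, 28 were counted in most of the libraries of a group, which was the tissue for 27 of them and the injured 3 h flush for Kcnmb4, a BK beta subunit (13 counts in 3 libraries). In the tissue, Kcnk1 had 66 counts, Kcnn1 63, Kcnab2 60 and Kcnj11, the ATP-sensitive pore of pancreas and heart, 42. Another 22 of these had 2 to 41 counts there, among them Kcna6, Kcnt1, Kcnj12, Kcnk5, Kcng4, Kcnk13, Kcna1, Kcnj10, Kcng3, Trpv6, Kcnk10, Trpm5, Kcnh7, Kcnab3, Kcnk7, Kcnc2, Kcna3, Kcnv2, Kcnj9, Kcna4 and Kcnh4. Kcna5, a voltage-gated channel named for smooth muscle, had 22 counts in 2 injured 3 h flushes, 32 in 2 uninjured flushes and 9 in the 3 tissue libraries. Trpm2, a channel of phagocytes, had 267 counts in 2 injured 3 h flushes and 4 in the tissue, and none in the other flushes. Of the leukocyte list, 3 of 8 were tested, and among the rest Kcna3, the potassium channel of T cells, had 5 counts in 1 injured 48 h flush and 4 in 2 tissue libraries. Over all 114 members, 45 had no count in the 23 flush libraries, and 32 of these had counts in a tissue library. At these depths, members with no count may still be expressed below the level at which 3 counts would be seen.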

How the data were processed

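Libraries were made with the NuGEN Ovation ultralow kit, per the labels' protocols. The authors deposited raw counts per gene symbol. HISAT2 2.0.3, HTSeq, DESeq2 1.14.1 and GRCm38 are named in the submitters' processing notes; annotation, strand setting and read filters were not given in the sources used here. The authors' deposited comparison tables give log2 fold changes with adjusted p-values made by the authors, used once below.

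Counts were tested with edgeR 4.0.16 (R 4.3.3; quasi-likelihood, TMM scaling, filterByExpr by group) in 1 fit of all 26 libraries without covariates, which kept 13884 of 21119 genes. The p-values were two-sided and Benjamini-Hochberg adjusted over all genes tested, with a threshold of 0.05. CPM was TMM scaled, with a prior count of 2 on the log2 scale, and RPKM used GENCODE M21 exon unions of the same build (114 of 114 members matched). A level of 1 CPM stood for 1.779 to 13.8 counts. Floors were 3 counts over a group; ratios carry exact 95% intervals that cover counting error only.

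The members and gene lists were chosen with earlier results of these data known. Named were all tested members of the textbook lists, up to 10 members with the smallest p per direction and comparison at 1 CPM or more, and low members counted in most libraries of a group; a few that meet this rule are counted but not reported by name here. Library numbers are mouse IDs and so pair the samples. Deviations from group means correlated across genes by -0.127 to 0.207 within mice between injured and uninjured flush and by 0.014 to 0.134 between flush and tissue. No libraries were duplicates. Alternatives were DESeq2 1.42.0, RLE scaling, no filter, batch or mouse as a term, thinned counts, fewer groups and libraries left out. The test was checked on simulated data.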

Additional observations from a re-analysis of the deposited data

Results flagged for a closer look

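In 24 of 89 groups of 4 to 10 libraries of the members named here, the highest or lowest library stood apart. It lay further from the nearest other than Dixon's 95% limit for its group size allows. That limit flags about 1 in 20 groups of normally distributed values. These are CPM, often of low counts, so the 24 cannot be set against that share. For Trpv2 in C3B, Kcnk3 in E1C, Kcne4 in E2A, Kcnb2 in C2C and Kcns3 in E3B, all other libraries of the group were at 0. Each value below is the CPM of the library that stood apart.

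Injured 48 h library E2A accounted for 7 of them. It was highest of its group for the potassium channels Kcnmb1 at 25.13, Kcnj8 at 27.13, Kcna2 at 34.26 and Kcnd1 at 14.28, for the accessory subunits Kcnip1 at 22.56 and Kcne4 at 0.2855, and for Trpm7 at 232.4. It also had the highest fibroblast and mesothelial marker sums of its group, whose part in these values was not tested. In the other injured 48 h libraries, E3B was highest for Trpm3 at 4.526, E3A for Kcnv1 at 9.513 and Trpc6 at 3.615, and E2B for Trpv2 at 5.474.

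In the injured 3 h flush, C2C was highest for Kcnj8 at 3.445, Kcnj13 at 17.23, Kcnj16 at 19.91 and Kcnb2 at 1.148. C3B was highest for Trpv2 at 11.89 and C2A for Kcnip3 at 12.82. In the uninjured flush, E1C was highest for Trpv4 at 106.4, Kcnk6 at 27.91 and Kcnk3 at 2.869. E1B was highest for Kcnmb1 at 14.11, E3A for Kcnip3 at 37.53 and E3B for Kcns3 at 2.71, and E3C was lowest for Trpm4 at 0.9304.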

How the results depend on the processing

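Between the injured 48 h and the uninjured flush, 8 members were higher and 21 lower. The higher count was 2 of 34 members with only these groups and 2 of 34 with the replicate block for mouse. It was 5 of 50 with DESeq2 and 3 of 47 with only the uninjured libraries of at least 3000000 counts. Among all genes, 2238 of 10913, 2477 of 10913, 3582 of 13884 and 1616 of 13480 were higher in that order. The lower count was 6 of 51 without batch 1, 5 of 47 with only the larger uninjured libraries and 17 of 34 with the block. Among all genes, 1303 of 13955, 774 of 13480 and 2184 of 10913 were lower in these fits. Leaving out 1 library gave 7 to 8 higher and 16 to 22 lower. Between the injured 3 h and the uninjured flush, 3 were higher and 14 lower. The higher count was 7 of 101 members with no filter and 5 of 51 without batch 1. It was 5 of 46 with thinned counts and 1 of 36 with only these groups. Among all genes, 2401 of 18712, 1741 of 13955, 2002 of 12114 and 1297 of 10405 were higher in that order. The lower count was 3 of 51 without batch 1 and 5 of 47 with only the larger uninjured libraries. Among all genes, 831 of 13955 and 1153 of 13480 were lower in these fits. Leaving out 1 library gave 2 to 5 higher and 7 to 14 lower. Between 48 h and 3 h, 0 were higher and 4 lower. The higher count was 1 of 46 with thinned counts, 1 of 36 with only these groups and 3 of 50 with DESeq2. Among all genes, 1081 of 12114, 1574 of 11675 and 1902 of 13884 were higher in these fits. Leaving out 1 library gave 0 to 1 higher and 2 to 6 lower. Between the injured 48 h flush and the tissue, 15 were higher and 15 lower. The block gave 7 of 49 members higher and 12 lower, and no filter gave 26 of 101 lower. Among all genes, the block gave 1482 of 13583 higher and 1236 lower, and no filter gave 2714 of 18712 lower. Leaving out 1 library gave 11 to 16 members higher and 12 to 16 lower. Where another number of members or libraries entered a fit, that is part of the change. Otherwise the cause was not tested. No named member changed direction with a call under any alternative run. Calls kept under every alternative, in the order of these comparisons, numbered 3 of 29, 2 of 17, 2 of 4 and 14 of 30. RLE scaling and DESeq2 moved the median of all genes by less than 0.1. Members of a few counts are limited by depth in the uninjured and 3 h flushes.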

Other observations

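The authors' deposited tables gave adjusted p-values for 51 to 56 members. In them, 5 members were higher and 20 lower in the injured 48 h than in the uninjured flush, of which 5 and 19 were also called in that direction here. For the injured 3 h against the uninjured flush they gave 4 and 13, of which 2 and 13 were shared. For 48 h against 3 h they gave 3 and 4, of which 0 and 3 were shared, and for the injured 48 h flush against the tissue 14 and 16, of which 14 and 14 were shared. No member was called in opposite directions. These calls rest on the same libraries and are a comparison of methods only.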
